A study of Mus musculus with 319 samples.

Results

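Single thymic cells labelled Aire-/- were compared with wild-type cells of the same batch, gene by gene and separately on each of the 2 plates that held both genotypes. The 1-cell wells of batch 2 were used, 96 labelled Aire-/- and 92 wild-type. After a filter on depth, detected genes and mitochondrial reads, 96 and 89 wells were kept, out of 319 samples in the series. Plate 1 gave 48 cells of each genotype, and plate 2 gave 48 cells labelled Aire-/- and 41 wild-type cells.

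By their labels, both groups were naive mice homozygous for Flare25, a reporter allele of the cytokine gene Il25. The strain was C57BL/6.Il25 for the wild-type group and C57BL/6.Il25.Aire for the other, in which Aire-/- was the added genotype. Cells of both groups came from 6-week-old mice, except 1 well labelled Aire-/- from 5 weeks, and sex was labelled mixed. Both were sorted through the same gate (UVBlue-, CD11c-, CD45-, EPCAM+, MHCIIlo and Flare25+), so cells with high surface MHC class II were gated out of both. The labels name no animal and no Aire allele, and each genotype is treated as 1 sample. No test between genotypes was possible for that reason. Intervals on a level or a share cover counting error only, and agreement between the plates is agreement between wells of the same source.

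Tuft cells are epithelial cells that sense their surroundings through a taste-like G protein pathway and secrete IL-25, eicosanoids and acetylcholine. In the thymus they lie in the medulla and belong to the medullary thymic epithelial cells (mTEC). In part of the mTEC the nuclear protein Aire drives expression of tissue-restricted antigens that are shown to developing T cells. MHC class II molecules carry such peptides to CD4+ T cells. They are assembled with the invariant chain (Cd74), loaded through H2-DM and transcribed through promoters that hold conserved X and Y boxes, read by RFX and NF-Y under the coactivator Ciita.

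Promoters of class II genes are shown here because H2-Aa and H2-DMa are among the few genes that differed by a fixed size on both plates. Of the 11 genes of the class II list, 8 had an entry in the RefSeq promoter table (GRCm38.p6). Each line gives the 120 bases before the annotated start, 5′ to 3′ on the strand of the gene. Capitals mark GATTGG, the core letters of a Y box, and AACNGATG, letters of the X box region, on either strand.
H2-Aa (chr17:34287824-34287943, minus strand): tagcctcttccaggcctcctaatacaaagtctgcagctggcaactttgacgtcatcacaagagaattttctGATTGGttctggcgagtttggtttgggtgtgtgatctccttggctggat
H2-Eb1 (chr17:34305747-34305866, plus strand): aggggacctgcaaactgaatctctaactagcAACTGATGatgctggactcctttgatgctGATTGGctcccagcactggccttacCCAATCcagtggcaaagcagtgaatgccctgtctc
H2-DMb1 (chr17:34153071-34153190, plus strand): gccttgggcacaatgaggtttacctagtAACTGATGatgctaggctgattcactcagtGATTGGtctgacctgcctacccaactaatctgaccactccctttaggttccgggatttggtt
H2-Oa (chr17:34092259-34092378, plus strand): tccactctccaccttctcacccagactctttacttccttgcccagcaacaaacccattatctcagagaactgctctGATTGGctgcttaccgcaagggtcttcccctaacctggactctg
GATTGG was present in the 250 bases before a start in all 8 genes, for H2-DMa at 1 of its 2 listed starts, against 14.56% of all 32851 promoters. AACNGATG was present in 4 of the 8 (H2-Eb1, H2-Eb2, H2-DMb1 and H2-DMb2), against 1.98% of all. The 250 bases before Aire held GATTGG as well. These matches describe letters in a window, and no binding was measured at them.

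Depth was similar in both genotypes. Median gene reads per cell were 668528.5 and 627164.5 in the wells labelled Aire-/- (plates 1 and 2) and 590628 and 540492 in the kept wild-type wells, with a lowest value of 45266. Spike-in RNA took a median 29.9% and 31.9% of reads against 41.03% and 35.2%. The 3 wild-type wells left out, all on plate 2, had 20.44% to 21.35% mitochondrial reads against a limit of 20%, and the highest kept well had 18.77%. Tuft core genes were abundant in most wells but not in all. They summed to under 5000 CPM in 6 kept wells, against medians per set from 24291 to 27675 CPM. The lowest were wild-type wells kw_tuft_102 (583.52 CPM), kw_tuft_93 (919.65, with 10 of 10 ciliated cell markers), kw_tuft_49 (1685) and kw_tuft_139 (2404). The other two were kw_tuft_155 and kw_tuft_173, labelled Aire-/- on plate 2. At least 5 reads of Xist with fewer than 5 of the Y-linked genes Ddx3y, Eif2s3y, Kdm5d and Uty were found in 46 and 40 cells labelled Aire-/- and in 21 and 21 wild-type cells. At least 5 Y-linked reads without Xist were found in 0 and 0 against 20 and 10 cells. Genotype and sex therefore moved together. X- and Y-linked genes were left out, and values for cells with Xist alone (Xist-only cells) of both genotypes are given beside the main results.

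Agreement between plates was limited. A gene was called when it passed a size rule on both plates in the same direction. The rule asked for a log2 fold of at least 1, with levels in CPM (counts of the summed cells scaled to their gene reads) plus 1, for shares of cells with 5 or more reads at least 15 percentage points apart, and for 20 CPM in the higher set. Of 8005 autosomal genes at 20 CPM or more in either genotype, 206 were higher (2.57%) and 110 lower (1.37%) in the wells labelled Aire-/- on plate 1. On plate 2, 291 were higher (3.64%) and 1.27% were lower. On both plates together 24 were higher (0.3%) and 10 lower (0.125%), which is 11.7% of the plate 1 and 8.25% of the plate 2 higher calls. Wild-type cells of batch 2 with Xist reads alone, set against those with Y-linked reads alone by the same rule, gave 53 genes higher (0.662%) and 58 lower (0.725%) on both plates. That contrast of smaller sets within 1 genotype label therefore called more genes than the contrast of genotypes. None of the 24 or the 10 was among them in the same direction.

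**Figure D1:**
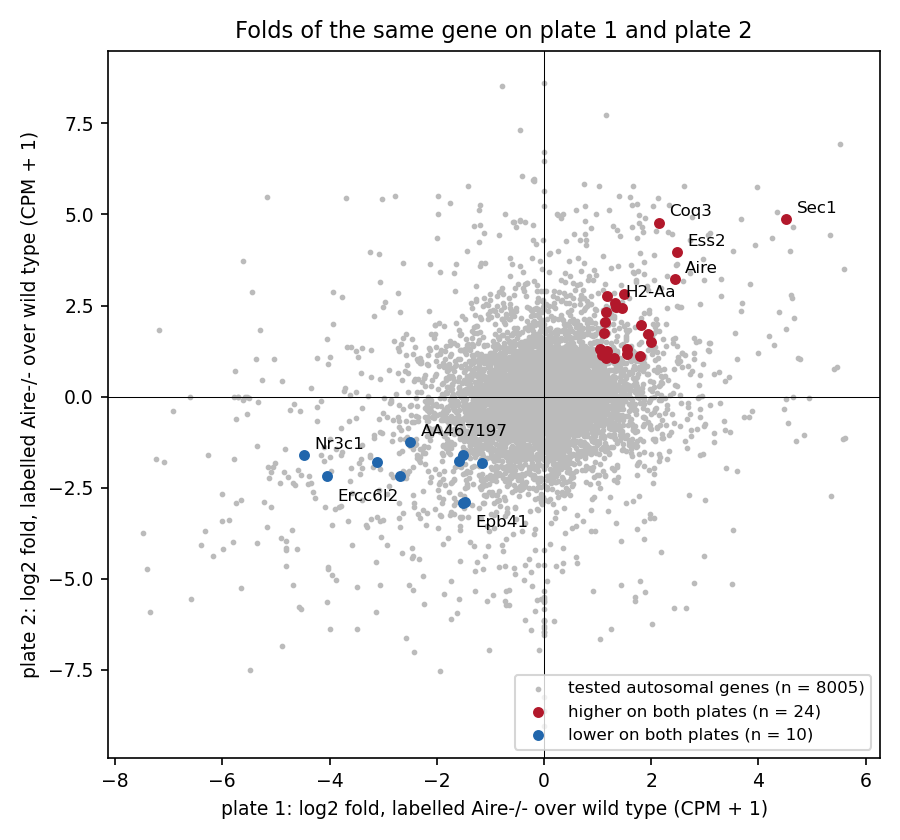
Each point is 1 of 8005 tested autosomal genes, with its log2 fold (cells labelled Aire-/- over wild type, CPM + 1) on plate 1 on the horizontal axis and on plate 2 on the vertical axis. The 24 genes called higher are red and the 10 called lower are blue, and most of the other points do not share a direction beyond 1 on both plates.

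Aire, the gene targeted by the label, was read more in the wells labelled Aire-/- than in wild type. Aire lies on the minus strand at chr10:78030022-78043610 (GRCm38) and overlaps Dnmt3l, on the other strand, by 1664 bases. On plate 1 the level of Aire was 93.1 CPM (3385 reads, 95% Poisson interval 89.9 to 96.2 CPM) in the wells labelled Aire-/- and 16.4 CPM (516 reads) in wild type. On plate 2 it was 213 CPM (7660 reads) and 22.01 CPM (568 reads). At least 5 Aire reads were found in 14 of 48 cells (29.2%, Clopper-Pearson interval 16.95 to 44.1) against 4 of 48 (8.33%, 2.32 to 20.0) on plate 1. On plate 2 they were found in 18 of 48 (37.5%, 23.95 to 52.6) against 3 of 41 (7.32%, 1.54 to 19.9). The median cell had 0 Aire reads in all 4 sets, and the highest cells reached 1001 and 2542 CPM against 514 and 783. The log2 fold was 2.44 on plate 1 and 3.22 on plate 2. Well kw_tuft_173 alone held 62.6% of the plate 2 Aire reads of its set, and the plate 2 fold without it was 1.89. With the top cell removed from the higher set of each plate the folds were 1.62 and 1.89, and in Xist-only cells of both genotypes they were 1.33 and 2.91. The direction of Aire goes against a label read as loss of its transcript. The counts are per whole gene, so reads inside and outside a deleted stretch cannot be told apart.

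The genes next to Aire also had positive folds. Dnmt3l, a cofactor of DNA methylation, stood at 53.97 CPM (1963 reads) against 0.191 (6 reads) on plate 1, and at 121.25 CPM (4360 reads) against 0 reads on plate 2. A limit of 3 counts over the wild-type set would put Dnmt3l 1043-fold higher on plate 2, but that limit covers counting of reads only. The reads came from few cells, so 1 positive wild-type cell could exceed it, and the fold is not a lower bound. Dnmt3l had 5 or more reads in 8 and 12 cells labelled Aire-/- and in 1 and 0 wild-type cells. The 0 of 41 wild-type cells on plate 2 allows a share of up to 7.32%. Dnmt3l did not pass the share gap on plate 1 (16.7% against 2.08%), so it is not among the 24. Both genes were read with 5 or more reads in 14 cells labelled Aire-/-, of 32 with Aire and 20 with Dnmt3l. The labels do not state whether counting used strand, so reads in the 1664 shared bases may have been given to either gene.

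Pfkl, the liver-type phosphofructokinase of glycolysis, lies 19939 bases from Aire. It was higher on both plates, with log2 folds of 1.12 and 1.73. Icosl, a costimulatory ligand 25692 bases from Aire, had folds of 0.73 and 2.70, and 1810043G02Rik had folds of 2.01 and 0.15. On both plates, folds were positive for 4 of 4 genes at 5 CPM or more within 100 kb, against 7 of 18 such genes at 0.1 to 1 Mb. The share of all tested genes, at 20 CPM or more, was 25.9%. Dnmt3l, 1 of the 4, overlaps Aire and reached 5 CPM only in the wells labelled Aire-/-. Of these neighbours, Pfkl passed the rule on both plates and Dnmt3l on plate 2.

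**Figure D2:**
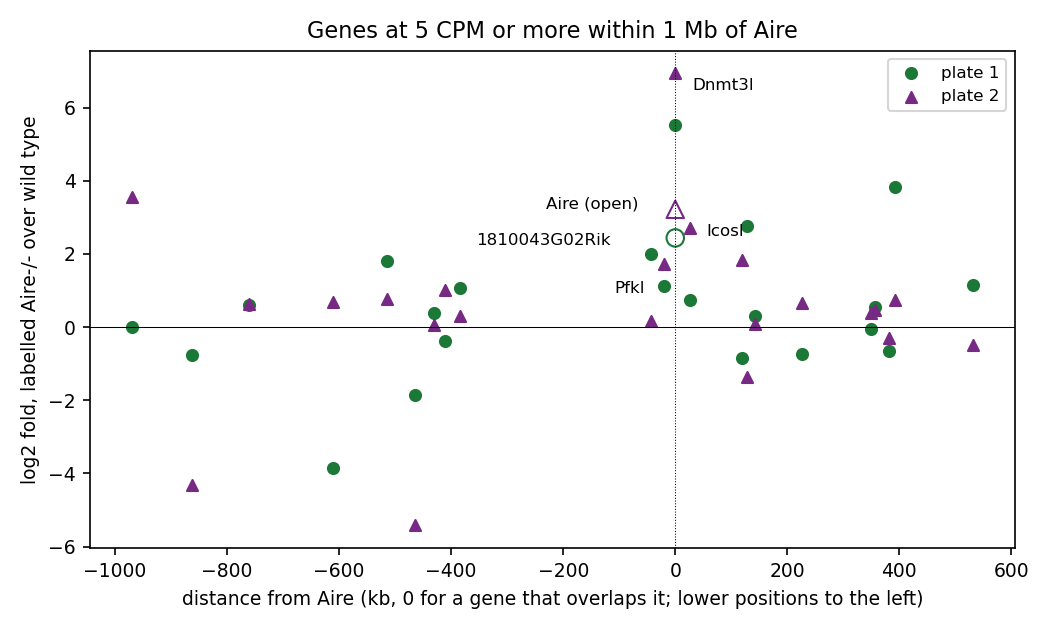
Points are genes at 5 CPM or more within 1 Mb of Aire, with distance from Aire in kb on the horizontal axis and the log2 fold on plate 1 (circles) and plate 2 (triangles) on the vertical axis. Open symbols mark Aire at 2.44 and 3.22, the 4 nearest genes lie above 0 on both plates, and Dnmt3l on plate 2 had 0 wild-type reads, so its plotted height depends on the 1 CPM added.

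Class II genes had mostly positive folds in the wells labelled Aire-/-, from a gate that kept class II low cells. The 11 measured members were the chains, the assembly and loading genes and the coactivator Ciita. Of these, 9 had positive folds on both plates and 0 had negative folds on both. The median log2 fold was 0.86 on plate 1 and 1.82 on plate 2. The medians over all tested genes were -0.02 and -0.04, with 25.9% above 0 on both plates. H2-Aa and H2-DMa, 2 of the 11, passed the rule on both plates, where 0.3% of all tested genes did.

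Summed over the list, class II levels ran from 3.11 CPM through a median of 1888 to 47135 CPM per cell on plate 1 in the wells labelled Aire-/-. In wild type they ran from 2.12 through 544.9 to 25213 CPM. On plate 2 they ran from 11.7 through 1934 to 116675 CPM against 11.6 through 974 to 15088. The ranges overlapped on both plates, and both the medians and the highest values were higher in the wells labelled Aire-/-. A level above the median of all kept wild-type wells (692.55 CPM) was found in 33 of 48 and 37 of 48 cells labelled Aire-/-. Above the wild-type 90th percentile (4037 CPM) lay 11 and 9 of them, against 6 of 48 and 3 of 41 wild-type cells.

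Well kw_tuft_173, on plate 2, carried much of the summed signal. It held 67.7% of the class II reads of its set, with 10 of 11 members at 5 or more reads. Its total of 1885083 gene reads was the third highest of the 48, and 23 of 28 tuft core markers were present in it with 5 or more reads. It also had reads of 7 of 12 markers of Aire-expressing mTEC, with Aire at 2542 CPM. Its tuft core genes summed to 4124 CPM, below the plate median of 24291. Without it the list median on plate 2 was 0.66 and 7 of 11 members stayed above 0 on both plates, with H2-Eb2 at -1.78 and H2-DMb2 at -1.16 on plate 2. The set fell from 9035 to 3080 CPM, against 2032 in wild type, while the median cell moved from 1934 to 1849 CPM. In Xist-only cells of both genotypes the list medians were 0.75 and 1.30, and with well kw_tuft_173 removed as well the list median of the mean of both plates was 0.561, against 1.431 in all kept cells. The median Xist-only cell had 1680 against 619 CPM on plate 1 and 2057 against 946 on plate 2. Wild-type cells with Y-linked reads alone had medians of 544.9 and 989.6 CPM. Thinned to 193837 reads a cell, which left 47 and 39 cells labelled Aire-/- and 47 and 33 wild-type cells, the medians were 2002 against 562 and 2693 against 1016 CPM.

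**Figure D3:**
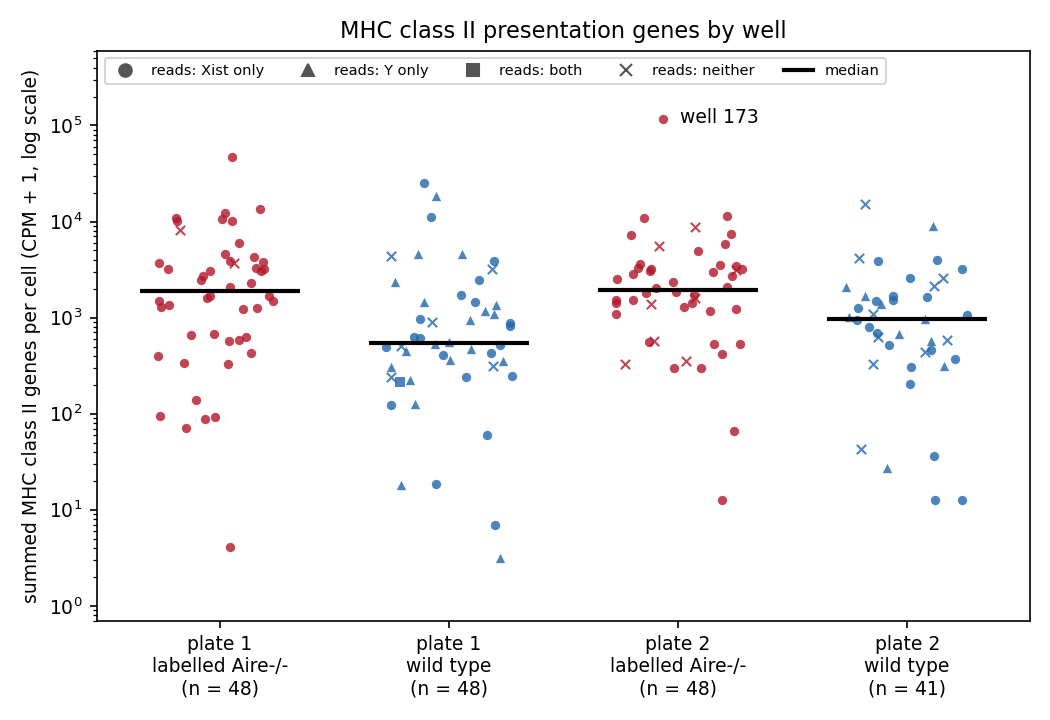
Each symbol is 1 cell, with the summed level of the 11 class II genes in CPM + 1 on a log axis, by plate and genotype. Black lines are medians (1888, 544.9, 1934 and 974 CPM from left to right), symbol shape gives the Xist and Y-linked reads of the cell, and well kw_tuft_173 stands at 116675 CPM.

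Among the chains of the antigen-presenting molecules, H2-Aa passed the rule on both plates. H2-Aa encodes the alpha chain of I-A, and stood at 930.1 CPM against 372 on plate 1 and 1677 against 282 on plate 2. Its median cell had 405 against 20.6 CPM on plate 1 and 356 against 3.95 on plate 2. It was found in 36 of 48 against 24 of 48 cells and in 35 of 48 against 16 of 41. The log2 folds were 1.32 and 2.57, and 1.04 on plate 2 without well kw_tuft_173. H2-Ab1, the beta chain of I-A, had folds of 0.80 and 2.03, and 0.12 on plate 2 without well kw_tuft_173. H2-Eb1, the beta chain of I-E, had folds of 1.25 and 2.18, and 0.71 on plate 2 without well kw_tuft_173. It passed on plate 1 and missed the share gap on plate 2, where 72.9% against 68.3% of cells held 5 or more reads. H2-Eb2 stayed under 11 CPM in every set, with folds of 0.85 and 0.71.

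The assembly and loading genes were less uniform. Cd74, the invariant chain, had folds of 0.94 and 2.25, and passed on plate 2, where its fold without well kw_tuft_173 was 0.66. H2-DMa, the alpha chain of the peptide exchange factor H2-DM, was at 83.1 CPM against 27.6 and at 122.97 against 49.2. It was found in 25 against 9 of 48 cells on plate 1 and in 18 of 48 against 8 of 41 on plate 2. Its folds were 1.56 and 1.31, and 0.82 on plate 2 without well kw_tuft_173, so its call rested on that well. The beta chains H2-DMb1 and H2-DMb2 had folds of 0.29 and 0.89 and of 0.86 and 1.15. These 2 share 31.4% and 36.4% of their 31-base transcript words with other genes, mainly each other, so their split is uncertain. H2-Oa, which with H2-Ob forms a modulator of H2-DM, had folds of 1.53 and 1.82, with shares under 15 points apart on plate 1. H2-Ob had 23.97 CPM against 23.3 on plate 1 and 0 reads against 5.31 CPM on plate 2.

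Genes that switch class II on had no common direction. Of 12 activator genes, 3 were above 0 and 2 below 0 on both plates, with medians of -0.17 and 0.54, and 0 passed the rule on both. Ciita, the coactivator, is counted among the 11 genes of the class II list, so its folds entered the class II medians. It had 2.83 against 5.68 CPM on plate 1 and 21.4 against 0.0387 on plate 2. There 3 cells labelled Aire-/- and 0 wild-type cells held 5 or more reads. Well kw_tuft_173 was 1 of those, at 349 CPM. Among members with high levels, Irf1 had folds of -0.33 and 0.56, Ifngr2 of -0.21 and 1.68, Nfyc of 0.44 and 0.78, and Nfyb of 0.98 and 0.51. Antigen processing proteases had medians of 0.34 and 0.57 (7 of 11 above 0 on both plates). MHC class I presentation genes had medians of 0.29 and 0.32 (9 of 14), led by H2-D1 at 0.43 and 0.34 and H2-K1 at 0.13 and 0.23. Neither list had a member called on both plates. Of all tested genes, 25.9% were above 0 and 29.1% below 0 on both plates.

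Most glycolysis enzymes had positive folds on both plates, and 3 of them were higher by the rule on both. The rule called 0.3% of all tested genes higher on both plates. Of 19 measured autosomal genes, 12 (63.2%) were above 0 on both plates and 0 below on both, against 25.9% and 29.1% of all tested genes. The median log2 folds were 1.10 and 0.92, and 0.98 and 0.42 with the top cell of each gene left out of the higher set. Tpi1, triose phosphate isomerase, stood at 1134 CPM against 503 on plate 1 and at 1066 against 444 on plate 2. Its cells ran from 2.03 through a median of 814 to 2465 CPM against 0 through 291 to 3871 on plate 1, so that the ranges overlapped and the medians lay apart. On plate 2 its median cell had 756 against 349 CPM. Ldha, lactate dehydrogenase A, was at 717 against 289 and at 723 against 344 CPM, in 40 against 30 of 48 cells and in 37 of 48 against 23 of 41. Pfkl, which lies 19939 bases from Aire, was at 449.9 against 207 and at 475 against 141.93 CPM. It was found in 34 against 26 of 48 cells and in 37 of 48 against 14 of 41. Of the other members with high levels, Aldoa had folds of 1.10 and 0.87, Eno1 of 1.53 and 0.92, Pkm of 0.93 and 0.96 and Gapdh of 1.06 and 0.93. These 4 missed the rule on plate 2 on size or share.

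The glycolysis sum per cell had medians of 8552 against 4428 CPM on plate 1 and 8292 against 4622 CPM on plate 2. Well kw_tuft_173 stood low in it, at 2337 CPM, and without it the plate 2 median was 8707 CPM. The other wild-type sets of the series, from batch 1, stood at 5066 CPM (June5) and 3652 CPM (June29) as sets, against 10566 and 9819 for the 2 plates labelled Aire-/- and 4913 and 5672 for wild-type batch 2. In Xist-only cells of both genotypes the list medians were 0.94 and 0.56, with 14 of 19 members above 0 on both plates. Within wild type, Xist-only cells were above Y-only cells in this list by medians of 0.62 and 0.78, a difference of the same sign as that between genotypes. Thinned to equal depth, over the same smaller sets of cells, the medians were 8801 against 4607 and 8589.7 against 4932 CPM. Tpi1 and Ldha share 10.3% and 19.6% of their transcript words with other genes, among them pseudogenes of their own families. Tpi-rs11, a Tpi1 pseudogene that shares 56.1% of its words, passed the rule too, and its reads cannot be told apart from those of Tpi1 in full.

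**Figure D4:**
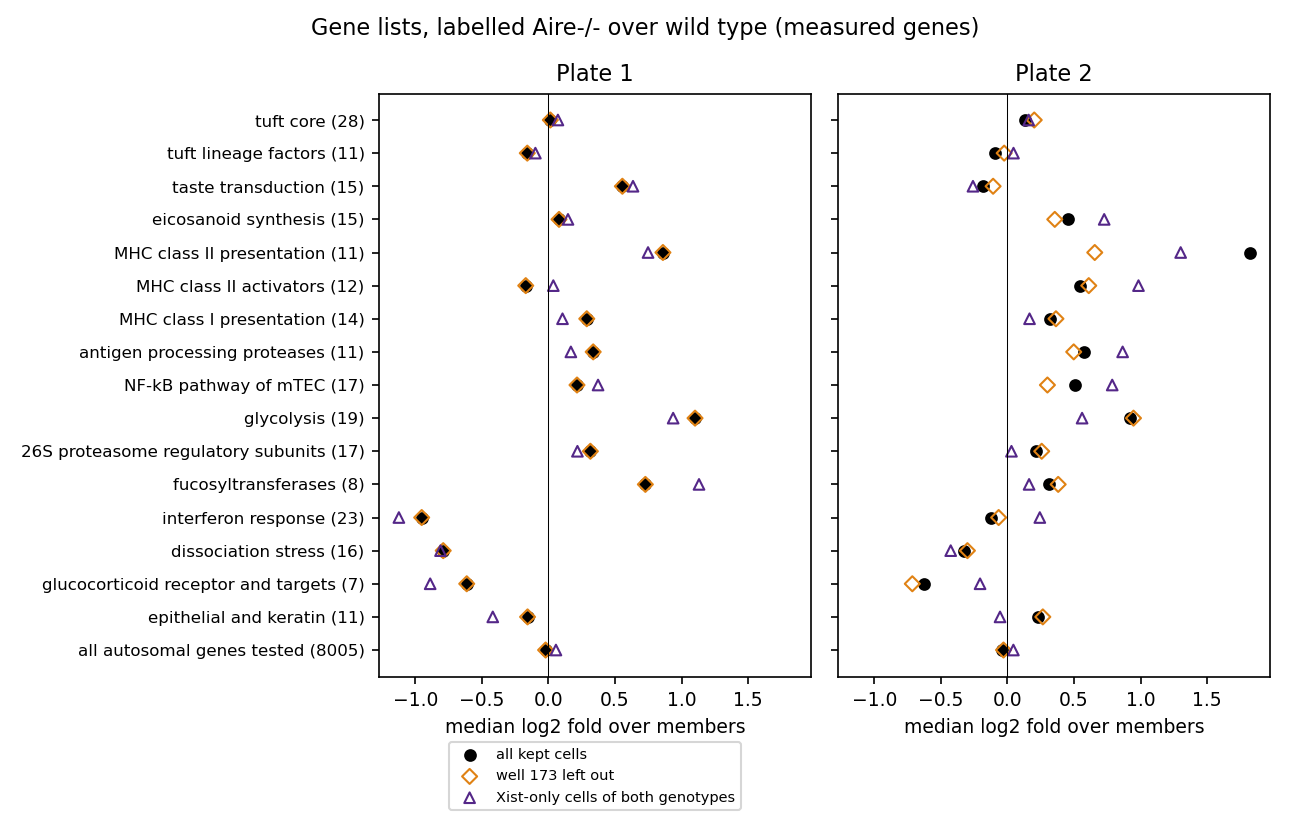
Median log2 fold over the measured members of each list (number in brackets), on plate 1 (left) and plate 2 (right), for all kept cells, without well kw_tuft_173 and for Xist-only cells of both genotypes. Glycolysis lies at 1.10 and 0.92, tuft core at 0.01 and 0.13, and the class II median on plate 2 moves from 1.82 to 0.66 without well kw_tuft_173.

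The other genes called higher fell into no list of more than 1 member. Sec1, a fucosyltransferase gene, had the highest smaller fold of the 2 plates, at 36.5 CPM against 0.635 on plate 1 and 75.5 against 1.63 on plate 2. Sec1 was found in 10 and 15 cells labelled Aire-/- and in 2 and 4 wild-type cells, with folds of 4.52 and 4.86, and 1 cell held 66.6% of its plate 2 reads. Sec1 lies at chr7:45677686-45694402 (GRCm38), overlaps Ntn5 by 10381 bases, and shares 8.69% of its transcript words with Fut2. Mamstr, a coactivator of MEF2 factors that ends 31164 bases before Sec1, had folds of 1.49 and 2.80. Of 14 genes at 5 CPM or more within 100 kb of Sec1, 9 were above 0 on both plates and 5 had folds of at least 1 on both. The shares of all tested genes, at 20 CPM or more, were 25.9% and 3.19%. The region was picked for the fold of Sec1, and a neighbour could reach 5 CPM through the genotype where it was high. These counts are therefore no test of the region. Ntn5, which overlaps Sec1, was 1 of the 5. Fut1, which makes the H antigen and is named for its position, was another. It had 5 or more reads in 7 against 0 cells on plate 1 and 2 against 3 on plate 2, so it did not pass. Fut2, the related fucosyltransferase of secretory epithelium, had folds of 0.71 and -0.02. Cells with Sec1 and cells with Mamstr were partly the same, 11 wells of 25 and 25.

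Psmd1, a subunit of the 26S proteasome cap, stood at 169.35 against 43.2 and 156.12 against 46.7 CPM. It was found in 23 against 12 of 48 cells and in 17 of 48 against 8 of 41. It was the only 1 of 17 regulatory subunits to pass on both plates, and the list medians were 0.32 and 0.21. Coq3, a methyltransferase of ubiquinone synthesis, was found in 16 against 7 of 48 cells and in 10 of 48 against 0 of 41, with folds of 2.14 and 4.77. Ess2, a splicing-associated nuclear protein, was found in 12 against 3 and in 14 against 1 cells, with folds of 2.48 and 3.98. Cbln4, a secreted protein of the cerebellin family, stood at 200.5 against 72.2 and 180.1 against 32.8 CPM, with folds of 1.46 and 2.42. Its reads came from 18 and 16 cells against 7 and 3.

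Ncf4, a cytosolic subunit of the phagocyte NADPH oxidase, had folds of 1.81 and 1.97, in 16 against 3 and 12 against 3 cells. Arhgdib had folds of 1.99 and 1.49, the latter 0.78 without well kw_tuft_173. S100a14, a calcium-binding epithelial protein, had folds of 1.35 and 2.47, the latter 0.93 without well kw_tuft_173. S100a16, which lies 8416 bases from it and is named for that position, had folds of 1.07 and 1.29, and 0.49 on plate 2 without well kw_tuft_173. Arl6ip5 and Jpt2 had folds of 1.17 and 2.76 and of 1.55 and 1.18. The 9 called genes that are not among the 15 with the largest smaller fold ranged in it from 1.05 for Tpi-rs11 to 1.16 for Hamp2, which are named for that after their values were seen.

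The 10 genes called lower had a median of the mean of both plates of -2.20, against 1.74 for the 24 called higher. Nr3c1, the glucocorticoid receptor, stood at 1.15 CPM (42 reads) against 47.1 (1484 reads) on plate 1 and at 14.5 against 46.03 CPM on plate 2. It was found in 2 against 11 of 48 cells and in 3 of 48 against 10 of 41. Its folds were -4.48 and -1.60, and in Xist-only cells of both genotypes -2.97 and 0.17. Of 7 measured genes of the glucocorticoid list, 3 were below 0 on both plates (42.9%, against 29.1% of all tested genes) and Nr3c1 alone passed.

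Card10, an adaptor that links receptors to NF-kB, was at 41.04 against 118.61 and at 8.06 against 68 CPM, in 8 against 16 of 48 cells and 4 of 48 against 10 of 41. Its folds were -1.51 and -2.93, and in Xist-only cells 0.24 and -2.67. Of the 17 genes of the NF-kB list 9 were above 0 on both plates (52.9%) and 3 below (17.6%), Card10 among the latter. The shares of all tested genes were 25.9% and 29.1%. Casz1, a zinc finger transcription factor, was found in 14 against 23 of 48 cells and in 10 of 48 against 23 of 41, with folds of -1.51 and -1.60. Epb41, a membrane skeleton protein, had folds of -1.48 and -2.90. Sorbs2, an actin-linked adaptor, had folds of -1.59 and -1.78. Ercc6l2, a DNA repair helicase, was found in 1 against 12 and 3 against 9 cells, and Luc7l2, a splicing factor, in 7 against 20 and 6 against 14. Gipc2 had folds of -2.68 and -2.18, AA467197 of -2.49 and -1.24, and 1700025G04Rik of -3.11 and -1.80.

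**Figure D5:**
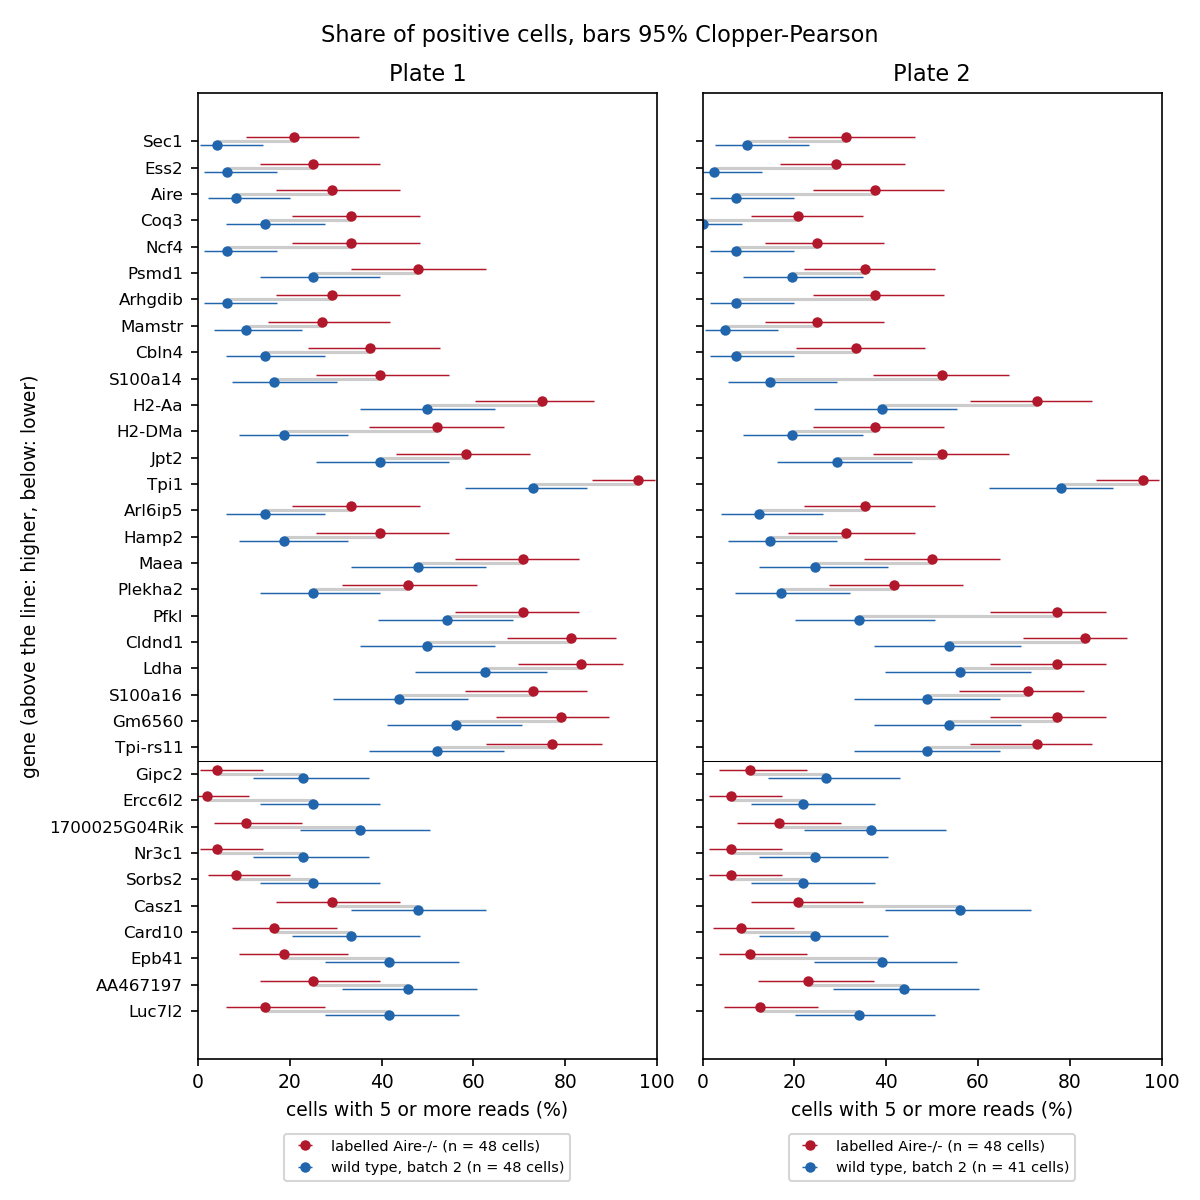
Share of cells with 5 or more reads for the 24 genes called higher (above the line) and the 10 called lower (below it), on plate 1 (left) and plate 2 (right). Red is labelled Aire-/- and blue is wild type, with 95% Clopper-Pearson bars that cover counting error only, and many pairs of bars overlap on at least 1 plate.

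The calls were sensitive to which cells were used. Without well kw_tuft_173, 22 genes were higher and 10 lower, of which 19 and 10 were shared with the main calls. Without the 6 wells of low tuft signal, 29 were higher and 10 lower, of which 20 and 8 were shared. The class II medians were then 1.24 and 0.73 and those of glycolysis 1.05 and 0.77. Among Xist-only cells of both genotypes, 62 genes were higher (0.775%) and 19 lower (0.237%), of which 12 and 4 were shared. In those cells all 24 had positive folds on both plates, and 8 of the 10 had negative folds on both. They include 46 and 40 of the 48 cells labelled Aire-/- per plate that gave the calls. A kept sign is therefore no independent support. With the top cell of each gene removed from the higher set, 8 and 4 genes remained called, namely Aire, Cbln4, Coq3, Ess2, Maea, Ncf4, Pfkl and Tpi1, and 1700025G04Rik, Casz1, Epb41 and Nr3c1.

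Tuft genes had small folds with no common direction. The 28 tuft core genes had medians of 0.01 and 0.13, with 11 above 0 and 7 below 0 on both plates, and 0 passed the rule on both. The sum per cell had medians of 25439.8 against 25108 CPM on plate 1 and 24291 against 27675 on plate 2. Avil, an actin-binding protein of the tuft, had folds of 0.46 and 0.59, Krt18 of 0.08 and 0.23, and Trpm5, the taste cation channel, of -0.03 and -0.46. Gnat3, the taste G protein subunit gustducin, had folds of 0.10 and -0.87 and Sh2d6 of -0.37 and -0.38. The 15 taste transduction genes had medians of 0.56 and -0.19, and the 11 tuft lineage factors of -0.16 and -0.09. Among 15 eicosanoid genes 8 were above 0 on both plates (53.3%, against 25.9%), with medians of 0.08 and 0.46. Alox5, the lipoxygenase of leukotriene synthesis, had folds of 0.99 and 0.72. Bitter taste receptors went different ways on the plates, with medians of 0.11 and -1.29 over 26 measured genes. With top cells left out these medians were 0.06 and 0.03, and in Xist-only cells of both genotypes 0.69 and -0.13. Within wild type, the medians of Xist-only over Y-only cells were -0.90 and -1.78.

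Immediate early genes, which dissociation of a tissue is known to induce, had mostly negative folds. Of 16 genes, 9 were below 0 on both plates (56.25%) and 1 above (6.25%), against 29.1% and 25.9% of all tested genes. The medians were -0.79 and -0.32, and 0 genes passed the rule on both. The sum per cell had medians of 4410 against 8354 CPM on plate 1 and 4372 against 5621 on plate 2. Fos, an immediate early transcription factor, had folds of -1.14 and -1.07, with a median cell at 577 against 1820 CPM and at 740 against 1538. Junb had folds of -0.65 and -0.85, Btg2 of -0.87 and -0.44, Dusp1 of -0.89 and -0.16, and Ier2 of -0.66 and 0.08. In Xist-only cells the sum on plate 2 had medians of 3843 against 4074 CPM. The stress list went the opposite way to the class II and glycolysis lists, and its part in those results was not tested. Interferon response genes had medians of -0.95 and -0.12, with 11 of 23 below 0 on both plates (47.8%, against 29.1%).

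Markers of Aire-expressing mTEC were at 2 or more per cell in 18 against 7 cells on plate 1 and in 18 against 5 on plate 2, with 5 or more reads each. Aire is itself 1 of these 12 markers. The list median was 0.00 on plate 1 and 2.66 on plate 2, where 56.4% of its reads in the set labelled Aire-/- came from 1 cell, well kw_tuft_180. Fezf2, a second regulator of tissue antigens, had folds of -0.72 and -0.44, and Fscn1, an actin bundler, of -0.16 and 1.61. Of 27 Aire-dependent antigens 3 were measured at 5 CPM or more, and 14 had 0 reads in all kept cells. The medians of the 3 were -0.37 and 1.84. The plate 2 value was -0.30 without well kw_tuft_173 and -0.12 with top cells left out.

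Haematopoietic markers were spread over both genotypes. The B cell gene Cd79b had 5 or more reads in 35 and 29 cells labelled Aire-/- and in 27 and 14 wild-type cells. Blnk had them in 22 and 26 against 19 and 22 cells. Ms4a1, Cd22 and Iglc2 had 5 or more reads in 0 cells of either. The B cell list summed to 593 against 395 CPM and 473 against 425. The dendritic cell or macrophage list, whose Cst3 was found in 38 and 41 against 37 and 30 cells, summed to 312 against 447 and 410.2 against 211 CPM. Thymocyte markers summed to 41.02 against 49.9 and 12.4 against 562 CPM, and 94.2% of the last value came from wild-type well kw_tuft_139, which held 8 of 14 thymocyte markers and 13 of 14 cell cycle genes. A second wild-type well of plate 2, well kw_tuft_102, held 93.3% of that set's corneocyte-like reads. Wells with 2 or more markers within 1 of these haematopoietic lists were 30 and 22 of 48 labelled Aire-/- (plates 1 and 2). Among wild-type wells they were 22 of 48 and 15 of 41. With these many wells left out, the class II list median of the mean of both plates was 0.867, against 1.431. The Aire fold was 1.736, against 2.827. With Cd79b, Blnk and Cst3 not counted as markers, such wells were 2 and 5 against 3 and 1. In this alternative, chosen after seeing the data, the class II median and the Aire fold were 1.634 and 3.159.

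Each genotype also had a well of 50 sorted cells, which none of the calls used. The descriptions of these wells each name the count table of the other genotype, while their titles name the genotype used here. Between them, 16 of the 24 genes had a positive fold and 8 of the 10 a negative fold, against 48.5% of tested genes above 0. The medians were 0.65 and -1.75. Folds of at least 1 were found in 6 of the 24, against 23.4% of all tested genes, a share near the background. For the 10, 6 were at -1 or below, against 25.4%. Glycolysis genes were above 0 in 18 of 19, with a sum of 9840.2 CPM in the well labelled Aire-/- and 4815 in wild type. Class II genes went the other way from the single cells, with 3 of 11 above 0 and a median log2 fold of -0.76. Tuft core genes summed to 22987 and 22132 CPM, and stress genes to 5211 and 5195.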

How the data were processed

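Smart-seq2 libraries of single sorted cells were compared between 96 wells labelled Aire-/- and 92 wild-type wells of batch 2. The deposited values are counts of reads for each gene in each well, not normalized by the authors. Per the submitters' processing notes, tools were STAR, Subread and featureCounts 1.5.3 with GRCm38. No source used here states the strand setting. Of 48795 gene entries, 48349 had a symbol in GENCODE M21 (GRCm38). The authors' deposited table of wells gave a batch number for each of these wells, and it matched the plate taken from the well number. No doublet caller was run. A further deposited table of values per gene and well, whose unit no source used here states, was not used.

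Wells with at least 10000 gene reads, 1000 genes and at most 20% mitochondrial reads were kept. Counts were summed per genotype and plate and scaled to CPM, with 1 CPM added for log2 folds. A list value is the median over its autosomal members that reached 5 CPM in a genotype, given per plate or as the mean of the 2 plates. Totals were 36375191 and 35959624 gene reads (labelled Aire-/-) and 31489565 and 25808496 (wild type). No molecular identifiers were used, so intervals and limits cover counting error only. The members, the lists and the size rule were chosen with earlier results of these data known. Genes were named by a rule: all called genes where a direction had 15 or fewer, otherwise the 15 with the largest smaller fold of the 2 plates. Aire and its region and all class II members were named too, and from other lists up to 5 with the highest level and those called. Some results are not reported here. The size rule was tested on simulated data. Alternatives covered the cells used, scaling (TMM, edgeR 4.0.16 in R 4.3.3), thinning, pseudocount and thresholds. Python 3.11.15, numpy 2.4.6, pandas 2.3.3 and scipy 1.17.1 were used.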

Additional observations from a re-analysis of the deposited data

Results flagged for a closer look

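The 50-cell wells entered no call. Of the signals given here, class II alone lay above the level that the shallow no-cell well showed or allows. The 50-cell well labelled Aire-/- held 19 Dnmt3l reads in 539621 gene reads, while the wild-type 50-cell well held 0 in 720527. The no-cell well of batch 1 held 0 in 9892, which allows up to 303 CPM. Aire itself had 14 reads in the 50-cell well labelled Aire-/- and 11 in the wild-type 50-cell well, a smaller contrast than in the single cells. The wild-type 50-cell well held 33 reads of the 4 Y-linked genes, against 0 in the well labelled Aire-/- and 2 in the far shallower no-cell well, where they were the larger share of reads. Class II genes summed to 9662.4 CPM in the wild-type 50-cell well and to 4897.9 CPM in the well labelled Aire-/-, the reverse of the order in the single cells, against 2426 CPM from 24 reads in the no-cell well. Each genotype had 1 such well, and no replicate check exists.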

How the results depend on the processing

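Of the class II, stress and tuft core medians, as means of both plates, the tuft core median alone changed sign. Other lists changed sign on a single plate, and those given here are examples. In Xist-only cells on plate 2, interferon response went from -0.12 to 0.24, mTEC low from -0.84 to 0.58 and corneocyte-like from -5.43 to 0.14. With top cells left out, taste transduction on plate 2 went from -0.19 to 0.02 and bitter receptors from -1.29 to 0.03. Under that setting class II activators on plate 1 went from -0.17 to 0.27. Aire-dependent antigens on plate 2 went from 1.84 to -0.30 without well kw_tuft_173. The count of 24 higher genes came to 62 in Xist-only cells of both genotypes, 95 with haematopoietic-marker wells left out, 8 with the top cell of each gene left out, 15 at 50 CPM or more, 56 with a share gap of 10 points, 80 with the plates pooled, and 54 in Xist-only cells without well kw_tuft_173. The count of 10 lower genes came to 19, 23, 4, 4, 30, 30 and 20 under the same settings, to 5 with cells thinned and to 6 with 10 reads for a positive cell. The Aire fold of 2.827 (mean of both plates) came to 2.162 without well kw_tuft_173, 2.115 in Xist-only cells, 2.14 as the mean of per-cell CPM, 2.041 thinned, 1.736 with haematopoietic-marker wells left out, 1.755 without its top cell, 1.43 in Xist-only cells without well kw_tuft_173 and 2.076 without the 6 wells of low tuft signal. The class II median of 1.431 came to 0.616 without well kw_tuft_173, 0.622 without top cells, 0.561 in Xist-only cells without well kw_tuft_173, 0.581 without the 6 wells of low tuft signal and 0.867 with haematopoietic-marker wells left out. The tuft core median of 0.088 came to -0.002 as the mean of per-cell CPM, -0.334 with haematopoietic-marker wells left out and -0.061 without top cells. The cause of these changes was not tested. Leaving out haematopoietic-marker wells removed 30 and 22 wells labelled Aire-/- and 22 and 15 wild-type wells (plates 1 and 2). The stress median ran from -0.686 to -0.326. For the 33 called genes other than Aire, 333 of 429 values of the mean of both plates moved by less than the spread of the plates. Another 96 moved further and 0 changed sign. The settings reuse cells that gave the calls, so a kept sign is no independent support. On a single plate, 5 called genes changed sign under at least 1 setting, Nr3c1 and Card10 in Xist-only cells among them. The settings with 3 genes not counted as markers, with Xist-only cells without well kw_tuft_173 and without wells of low tuft signal were chosen after seeing the data. Genes near 20 CPM rest on few cells, and shares of 48 or 41 cells limit the precision. No paired analysis was possible because the labels pair no animals and no test was made.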
